A study of Mus musculus with 6 samples.

Results

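The 10 genes described here encode members of the interleukin-1 (IL-1) cytokine family and its receptors, chosen by name: the ligands Il1a, Il1b, Il33 and Il18, the receptor antagonist Il1rn, the receptors Il1r1, Il1rl1 and Il1rl2, the shared co-receptor Il1rap and the decoy receptor Il1r2. They are 10 of the 45706 genes in the deposited table, and all of them were found there. Their RNA was measured by sequencing in fibroblasts grown for a week from collagenase-digested and trypsin-treated lungs of wild-type mice. The 3 control libraries came from cells labelled control, and the 3 DKK1 libraries from cells given recombinant mouse DKK1 (Dickkopf-1, a secreted antagonist of the Wnt co-receptors LRP5 and LRP6) at 30 ng/ml for 24 hours. The labels name no strain, sex, age or number of mice, and they do not say whether replicates were separate cultures or animals, so the p-values measure only the spread between these samples. The cells were purified after the week in culture, by a method that the labels do not give. Both replicate 3 libraries stood apart from the other 4 on the first principal component of all genes.

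IL-1 alpha and IL-1 beta bind the receptor IL1R1, which then recruits the co-receptor IL1RAP and signals through MyD88 and IRAK kinases to NF-kB. IL1RN occupies the same receptor without recruiting the co-receptor, and IL1R2 binds the ligands but lacks the signalling domain. IL-33, which is released from the nucleus of damaged stromal and epithelial cells, binds ST2, the product of Il1rl1, and IL1RL2 is the receptor of the IL-36 cytokines; both also use IL1RAP. In lung, fibroblasts are known as cells that respond to IL-1 with chemokines and prostaglandins.

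After DKK1, 5 of the 10 genes rose when same-numbered libraries were compared as pairs: the antagonist Il1rn by a log2 fold change of 1.17, the ligand Il33 by 0.89, the ST2 gene Il1rl1 by 0.51, the IL-1 receptor gene Il1r1 by 0.29 and the co-receptor gene Il1rap by 0.17. The labels do not give this pairing, which was inferred from these same data, and the unpaired fit was the main one. None of the 8 genes expressed enough to test was called when the samples were treated as unpaired (edgeR quasi-likelihood test, adjusted p under 0.05), although 3 of them, Il1rn, Il1r1 and Il33, had an unadjusted p under 0.05. DESeq2 called 2 as higher without pairing, Il1rn and Il1r1, where it called 2.04% of all genes and 1.44% as higher. Across all 14635 tested genes, 0.895% were called without pairing and 9.42% with it, 4.96% as higher; without pairing, 5.68% were higher at an unadjusted p under 0.05. The IL-36 receptor gene Il1rl2 and the decoy receptor gene Il1r2 passed the threshold in neither fit. Both IL-1 ligands were scarce: Il1a reached 33 counts and Il1b 13 counts at most in any library.

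Promoter windows of the 5 genes below are shown because a rise of 4 of them was called in the paired fit and the windows hold letters of a searched motif; Il1a is shown as the other ligand or antagonist window with an AP-1 match. Each is the 250 bases before a RefSeq gene start (build GRCm38.p6), written 5′ to 3′ on the gene's strand, with the matched letters in capitals. RefSeq gave 15 windows for the 10 genes, and 4 motifs were searched on both strands: the kappaB consensus of NF-kB, AP-1 (TGANTCA), C/EBP (TTGCNNAA) and TCF (CTTTGA).
Il1rn, chr2:24336610-24336859, plus strand: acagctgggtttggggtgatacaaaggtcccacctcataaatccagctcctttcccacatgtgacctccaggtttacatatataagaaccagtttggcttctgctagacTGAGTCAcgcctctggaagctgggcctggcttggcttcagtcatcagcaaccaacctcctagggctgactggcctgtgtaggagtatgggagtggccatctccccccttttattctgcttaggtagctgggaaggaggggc
Il1a, chr2:129309973-129310222, minus strand: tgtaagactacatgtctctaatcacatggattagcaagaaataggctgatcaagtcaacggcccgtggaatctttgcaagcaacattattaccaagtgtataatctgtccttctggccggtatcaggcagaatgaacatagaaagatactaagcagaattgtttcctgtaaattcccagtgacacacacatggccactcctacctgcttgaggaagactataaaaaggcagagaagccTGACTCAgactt
Il33, chr19:29945540-29945789, plus strand: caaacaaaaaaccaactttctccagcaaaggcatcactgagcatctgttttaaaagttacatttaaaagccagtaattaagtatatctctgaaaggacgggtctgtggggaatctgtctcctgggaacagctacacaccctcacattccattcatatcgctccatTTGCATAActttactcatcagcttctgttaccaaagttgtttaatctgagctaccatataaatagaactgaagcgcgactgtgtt
Il1rl1, chr1:40429320-40429569, plus strand: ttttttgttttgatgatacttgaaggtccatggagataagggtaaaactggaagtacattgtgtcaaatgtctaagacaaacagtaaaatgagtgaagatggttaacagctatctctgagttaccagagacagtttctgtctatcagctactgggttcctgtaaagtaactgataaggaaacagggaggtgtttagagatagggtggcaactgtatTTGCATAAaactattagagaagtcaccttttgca
Il1r1, chr1:40224830-40225079, plus strand: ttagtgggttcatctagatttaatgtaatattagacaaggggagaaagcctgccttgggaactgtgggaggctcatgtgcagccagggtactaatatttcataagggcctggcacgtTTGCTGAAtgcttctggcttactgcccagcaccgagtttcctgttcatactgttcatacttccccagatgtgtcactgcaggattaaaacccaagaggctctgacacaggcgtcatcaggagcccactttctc

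AP-1 letters were found in 2 of the 15 windows, those of Il1rn and Il1a above, and in 6.75% of all 32851 RefSeq windows of the same length. The C/EBP letters were found in 4 of the 15, those of Il33, Il1rl1 and Il1r1 above and 1 of Il1rl2, against 9.56% of all windows. A match did not go with a call throughout. The window of Il1rap, whose rise was called in the paired fit, holds none of the 4 motifs, and Il1rl2 was not called. The Il33 and Il1rl1 windows, of a ligand and its receptor, hold the same letters, TTGCATAA. RefSeq gives each of these genes another start, whose window (chr19:29924863-29925112 for Il33 and chr1:40439379-40439628 for Il1rl1) holds none of the 4 motifs. The same is so of the other window of Il1r1 (chr1:40266336-40266585) and of both other windows of Il1rn (chr2:24345041-24345290 and chr2:24345121-24345370). The Il33 window shown is that of the downstream start, inside the gene. Which start these cells used cannot be told from a count per gene. Neither the kappaB consensus (5.0% of all windows) nor the TCF letters (13.8%) were found in any of the 15, which says only that these letters are not in these windows. The AP-1 letters end 6 bases before the start in Il1a and 135 bases before it in Il1rn. A match is a description of letters and not of a bound site.

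Levels of different genes were compared per exon length, on a scale on which all genes of a library share the same sum (TPM, transcripts per 1000000). Il1r1 was the most abundant of the 10 in both groups, at 69.6 ± 4.32 TPM in control and 84.6 ± 5.78 TPM in DKK1-treated cells (SD, n = 3 each). In control cells it was followed by Il1rap at 25.4 ± 2.68, Il1rl2 at 19.7 ± 0.594 and Il1rl1 at 7.44 ± 3.48 TPM (SD, n = 3), and each of these 4 genes lay above the next in all libraries. Il1rn (1.93 ± 0.829 TPM) and Il33 (1.83 ± 0.496 TPM) overlapped each other, as did Il18 (1.15 ± 0.225), Il1r2 (1.12 ± 0.444) and Il1a (1.05 ± 0.761). With the length of the longest transcript in place of merged exons, control Il1rap stood at 48.3 TPM and control Il1rn at 3.17 TPM, and Il1rn then lay above Il33 (1.57 TPM) in all control libraries. Il1b was at 0 in 2 control libraries and at 0.499 TPM in the other. The receptor genes thus stood above all ligand genes in control libraries except for the decoy receptor gene Il1r2. In DKK1-treated cells the first 6 places held the same genes in the same order, Il1a (2.02 ± 0.501 TPM) stood above Il1r2 (1.09 ± 0.0813 TPM) in every library, and Il1b (0.740 ± 0.295 TPM) overlapped Il18 (0.785 ± 0.303 TPM).

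**Figure D1:**
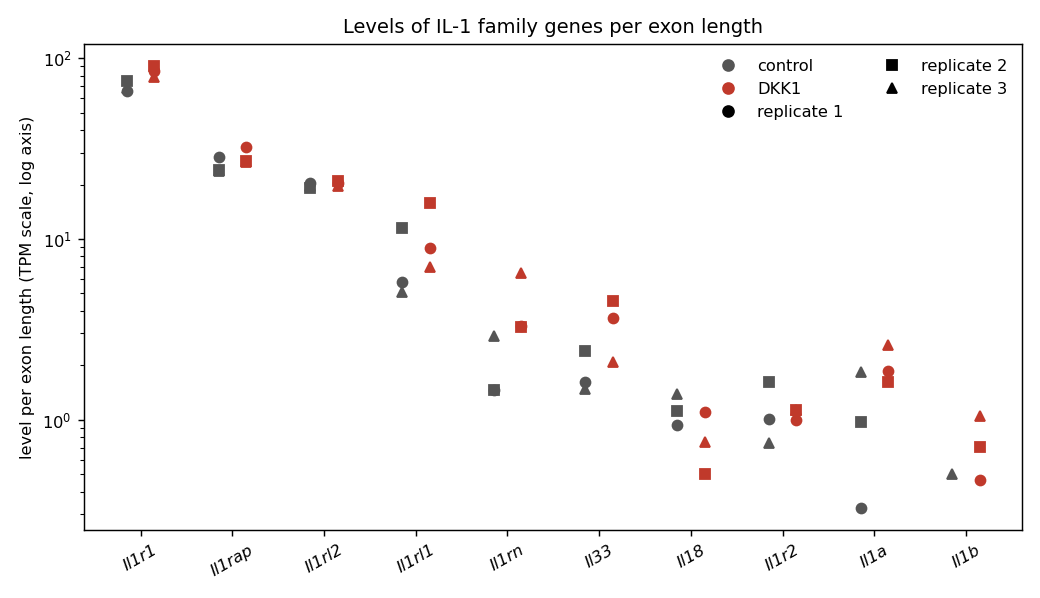
Level per exon length (TPM scale, log axis) of the 10 genes in each library, ordered by the control mean; grey marks are control and red marks DKK1 libraries, and the shape gives the replicate number. Il1r1 lies highest, between 66.1 and 90.4, and Il1b has the lowest mean of each group; the 2 control libraries with 0 Il1b counts cannot be drawn on a log axis.

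Values of single genes are given below as CPM, the count per 1000000 counts of the whole library. Of the ligands, Il1a (ENSMUSG00000027399, chr2:129299610-129309972, minus strand) encodes a cytokine active without cleavage that many cell types release on injury. It stood at 0.177, 0.531 and 1.01 CPM in control replicates 1, 2 and 3, from 4, 15 and 22.95 expected counts. In DKK1 replicates 1, 2 and 3 it stood at 1.01, 0.888 and 1.43 CPM. Each DKK1 library was above the control library of the same number, but the groups overlapped, since control replicate 3 was above DKK1 replicate 2 and level with DKK1 replicate 1. On the log2 scale DKK1 cells were higher by 0.93 (SE 0.48; edgeR, adjusted p = 0.574) and, in the paired fit, by 0.99 (SE 0.35; adjusted p = 0.108), so a change was not called in either. The paired fit without the low-count filter did call Il1a (1.005, SE 0.32, edgeR adjusted p = 0.0244). That fit called 7.56% of 23883 genes, 4.08% as higher.

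Il1b (ENSMUSG00000027398, chr2:129364570-129371139, minus strand) encodes the cytokine that caspase-1 activates and is chiefly a product of myeloid cells. It had 0, 0 and 6 counts in control replicates 1, 2 and 3 and 7, 13 and 13 counts in DKK1 replicates 1, 2 and 3. In CPM the highest control value, 0.265 in replicate 3, lay above the lowest DKK1 value, 0.244 in replicate 1, while every DKK1 library was above its same-numbered control. Summed over libraries, 6 counts in control against 33 after DKK1 gave a ratio of rates of 4.68 (exact 95% interval 1.93 to 13.7, counting error only). Il1b did not reach the count filter, and a fit without that filter put the log2 difference at 2.16 (SE 0.82; edgeR, adjusted p = 0.382). With pairing as well it was 2.36 (SE 0.76; edgeR, adjusted p = 0.0292), in a fit that called 7.56% of 23883 genes, 4.08% as higher.

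Il33 (ENSMUSG00000024810, chr19:29925114-29960718, plus strand) encodes the nuclear alarmin of stromal and barrier cells. It stood at 1.29, 1.91 and 1.19 CPM in control replicates 1, 2 and 3, and at 2.90, 3.63 and 1.69 CPM in DKK1 replicates 1, 2 and 3. Replicate 2 was the highest library of both groups and replicate 3 the lowest, and DKK1 replicate 3 lay below control replicate 2, so the groups overlapped. Within pairs the ratio of DKK1 to control was 2.25, 1.90 and 1.42. Unpaired, the log2 difference was 0.90 (SE 0.31; edgeR, adjusted p = 0.324), and paired it was 0.89 (SE 0.20; adjusted p = 0.0109). The paired call was lost without both replicate 2 libraries (log2 fold change 0.87, adjusted p = 0.146).

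Il18 (ENSMUSG00000039217, chr9:50554827-50581840, plus strand), the gene of a caspase-1 substrate that drives interferon-gamma in lymphocytes, had from 5 to 9 counts in all libraries and was not tested with the filter. Its sums of 24 counts in control and 19 after DKK1 gave a ratio of rates of 0.673 (exact 95% interval 0.349 to 1.28, counting error only). A difference in Il18 was not detectable at this depth.

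The antagonist Il1rn (ENSMUSG00000026981, chr2:24336853-24351494, plus strand) encodes the protein that blocks the IL-1 receptor. It stood at 2.22, 2.23 and 4.46 CPM in control replicates 1, 2 and 3, and at 5.02, 5.01 and 10.1 CPM in DKK1 replicates 1, 2 and 3. All DKK1 libraries lay above all control libraries, which was so for 9.4% of all tested genes, and replicate 3 was the highest library of each group. The ratio of DKK1 to control was 2.27, 2.25 and 2.26 in the 3 pairs. Unpaired, the log2 difference was 1.16 (SE 0.35; edgeR, adjusted p = 0.252), and paired it was 1.17 (SE 0.12; adjusted p = 2.79e-05). DESeq2 called Il1rn without pairing (adjusted p = 0.0252), and so did edgeR when both replicate 3 libraries were left out (adjusted p = 0.0261), a fit that called 0.8% of all genes as higher. Il1rn has secreted and intracellular forms, which a count per gene adds together.

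Replicate 3 of both groups was also the highest for summed markers of macrophages, epithelium and endothelium. The summed level of 10 macrophage or monocyte markers was 414 and 481 CPM in control replicates 1 and 2 and 836 CPM in control replicate 3. In DKK1 replicates 1, 2 and 3 it was 465, 507 and 886 CPM. Most of each sum was Lyz2, a lysozyme gene, at 339.98, 402 and 696 CPM in control replicates 1, 2 and 3 and 369.75, 412 and 722 CPM in DKK1 replicates 1, 2 and 3. Of these 10 markers 9 were tested and 0 were called without pairing, where 3 had an unadjusted p under 0.05, against 10.6% of all tested genes. With pairing 3 rose (Marco, Itgam and Adgre1) and 3 fell (Siglecf, Mrc1 and Csf1r), where 9.42% of all tested genes were called and 4.96% rose. Marco, a scavenger receptor gene, rose by 1.67 on the log2 scale in the paired fit (SE 0.10; edgeR, adjusted p = 2.51e-07). The part of macrophage RNA in the Il1rn and Il1b values was not tested, and in bulk RNA fewer cells of a type and less RNA per cell cannot be told apart. Of the 7 neutrophil markers, Ly6g and Retnlg were at 0 in all libraries and S100a9, Csf3r and Cxcr2 had at most 4 counts in any library, while Mmp8 and S100a8 rose in the paired fit by 0.87 and 1.50 on the log2 scale (edgeR adjusted p = 2.62e-08 and 0.000308). Markers of epithelium and endothelium were about as high in DKK1 as in control libraries, with sums of 26.6 to 88.3 and 25.9 to 86.9 CPM for epithelium and 23.8 to 64.4 and 21.7 to 63.0 CPM for endothelium, and none of the 10 tested passed the threshold in either fit.

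**Figure D2:**
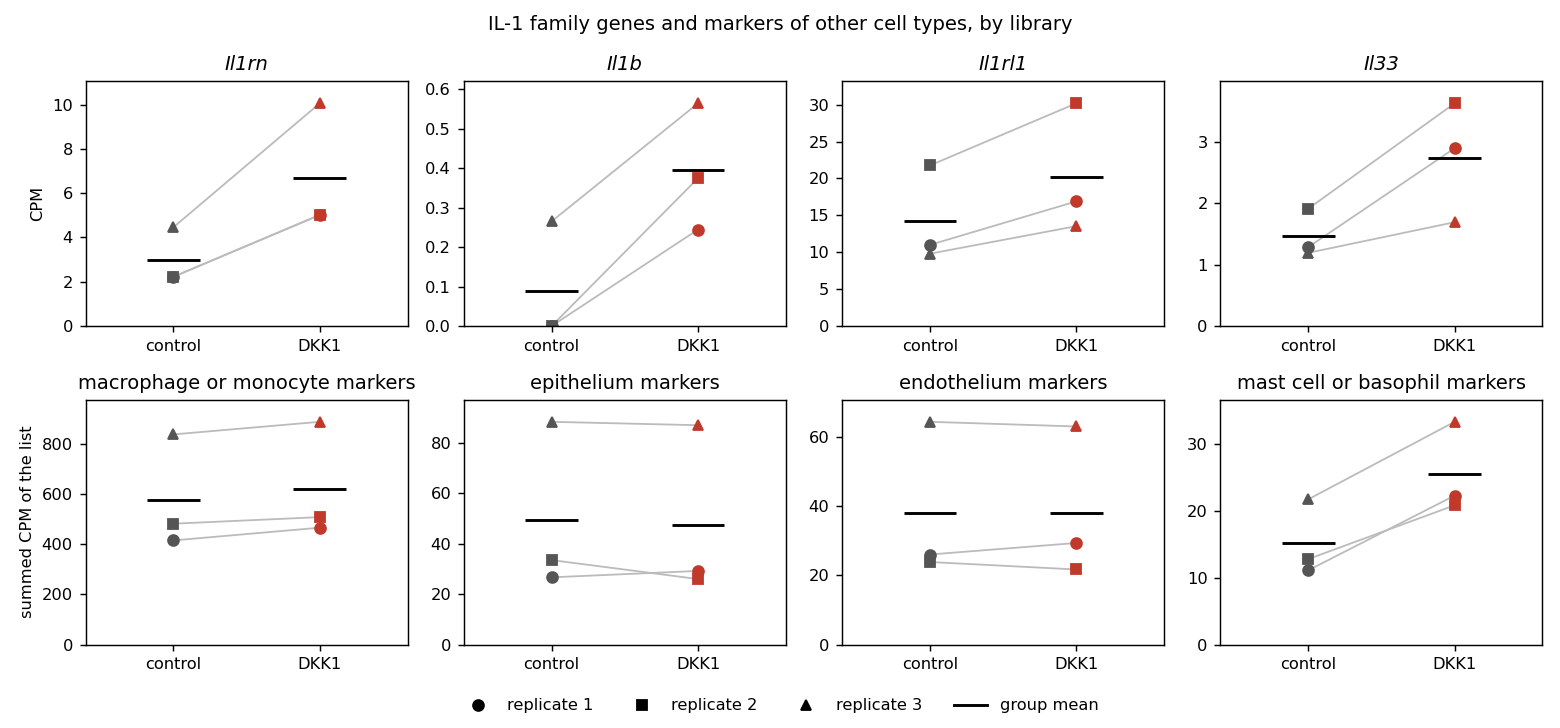
Top row, CPM of Il1rn, Il1b, Il1rl1 and Il33; bottom row, summed CPM of marker lists of 4 other cell types; each mark is a library, grey lines join libraries of the same number and black bars are group means. Replicate 3 (triangles) is highest for Il1rn, Il1b and the 4 marker lists, whereas replicate 2 (squares) is highest for Il1rl1 and Il33.

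Among the receptors, Il1r1 (ENSMUSG00000026072, chr1:40225080-40317257, plus strand), the signalling receptor of both IL-1 cytokines, had groups that did not overlap, with DKK1 higher, as in 9.4% of all tested genes. It stood at 116, 131 and 121 CPM in control replicates 1, 2 and 3, and at 149, 160 and 141 CPM in DKK1 replicates 1, 2 and 3. The rise was small beside that of Il1rn, with ratios of 1.28, 1.23 and 1.16 in the 3 pairs, on a far larger number of counts (2616 to 5563 a library). Both fits put the log2 difference at 0.29, unpaired with an SE of 0.06 (edgeR, unadjusted p = 0.0014, adjusted p = 0.0922) and paired with an SE of 0.03 (adjusted p = 2.73e-05).

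The co-receptor gene Il1rap (ENSMUSG00000022514, chr16:26581704-26730117, plus strand) stood at 89.2, 75.3 and 74.9 CPM in control replicates 1, 2 and 3, and at 101, 84.9 and 85.3 CPM in DKK1 replicates 1, 2 and 3. Replicate 1 was the highest library of each group, and control replicate 1 lay above DKK1 replicates 2 and 3. Within pairs the ratio was 1.13, 1.13 and 1.14. A log2 difference of 0.18 missed the threshold unpaired (SE 0.09; edgeR, adjusted p = 0.551), and one of 0.17 passed it paired (SE 0.03; adjusted p = 0.00171). Il1rap makes a membrane form and soluble forms, and its counts cover all of them.

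Il1rl1 (ENSMUSG00000026069, chr1:40429570-40465415, plus strand) encodes ST2, in a membrane form that receives IL-33 and a soluble form that captures it; the counts add both. It stood at 10.99, 21.8 and 9.80 CPM in control replicates 1, 2 and 3, and at 16.9, 30.2 and 13.5 CPM in DKK1 replicates 1, 2 and 3. Replicate 2 was the highest library of each group, and control replicate 2 lay above DKK1 replicates 1 and 3. Within pairs DKK1 was higher by ratios of 1.54, 1.39 and 1.38. The log2 difference, 0.50 unpaired (SE 0.36; edgeR, adjusted p = 0.70) and 0.51 paired (SE 0.06; adjusted p = 0.000124), was called paired and not unpaired. Mast cells and basophils are known to express ST2; of 7 markers listed for both, Cpa3, Tpsb2 and Fcer1a were at 0 in all libraries, Mcpt4 and Ms4a2 had at most 5 counts, Kit did not pass the threshold in either fit, and the basophil gene Mcpt8 rose in the paired fit (by 0.89 on the log2 scale; edgeR, adjusted p = 6.24e-06). The part of Mcpt8-expressing cells in the Il1rl1 value was not tested.

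The IL-36 receptor gene Il1rl2 (ENSMUSG00000070942, chr1:40324610-40367562, plus strand) was expressed at a steady level, at 38.2, 35.9 and 37.3 CPM in control replicates 1, 2 and 3 and 38.1, 39.7 and 37.8 CPM in DKK1 replicates 1, 2 and 3. The groups overlapped, and 2 of the 3 pairs were higher after DKK1. The log2 difference was 0.05 (SE 0.05; edgeR, adjusted p = 0.775), with a 95% interval from -0.05 to 0.15, and the paired fit gave 0.05 (adjusted p = 0.559). The decoy receptor gene Il1r2 (ENSMUSG00000026073, chr1:40074079-40125231, plus strand) had 12, 24 and 9 counts in control replicates 1, 2 and 3 and 15, 21 and 14 counts in DKK1 replicates 1, 2 and 3. The log2 difference of -0.07 (SE 0.34; edgeR, adjusted p = 0.978) had a 95% interval from -0.85 to 0.71, so changes of moderate size in either direction were not detectable, and its sign changed when single libraries were left out.

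**Figure D3:**
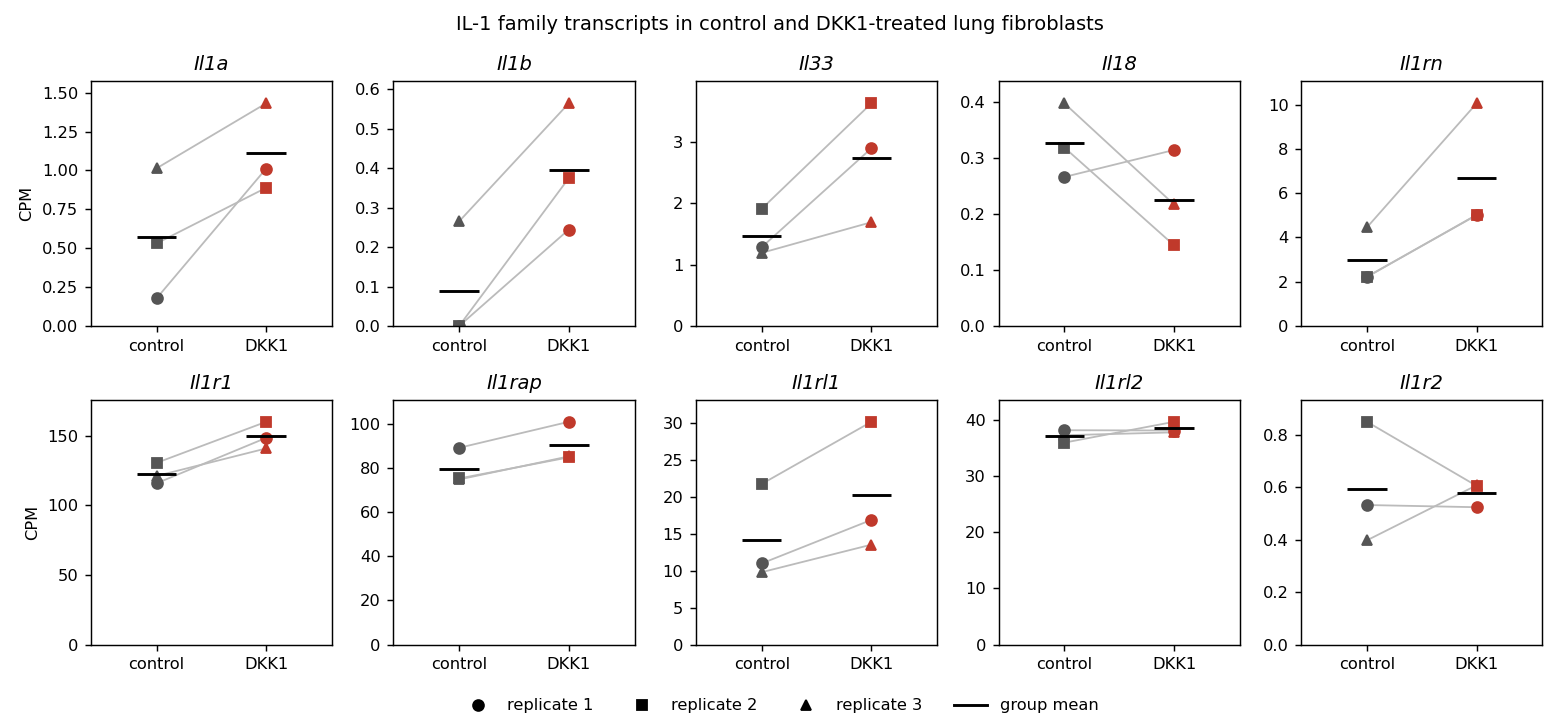
CPM of each of the 10 genes (axes start at 0) in control and DKK1 libraries; grey lines join libraries of the same replicate number and black bars are group means. For 7 genes all 3 lines rise (Il1a, Il1b, Il33, Il1rn, Il1r1, Il1rap and Il1rl1), as they do for 22.3% of all tested genes. Of these, Il1b was not tested. DKK1 lies fully above control for Il1rn and Il1r1, as it does for 9.4% of all tested genes.

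**Figure D4:**
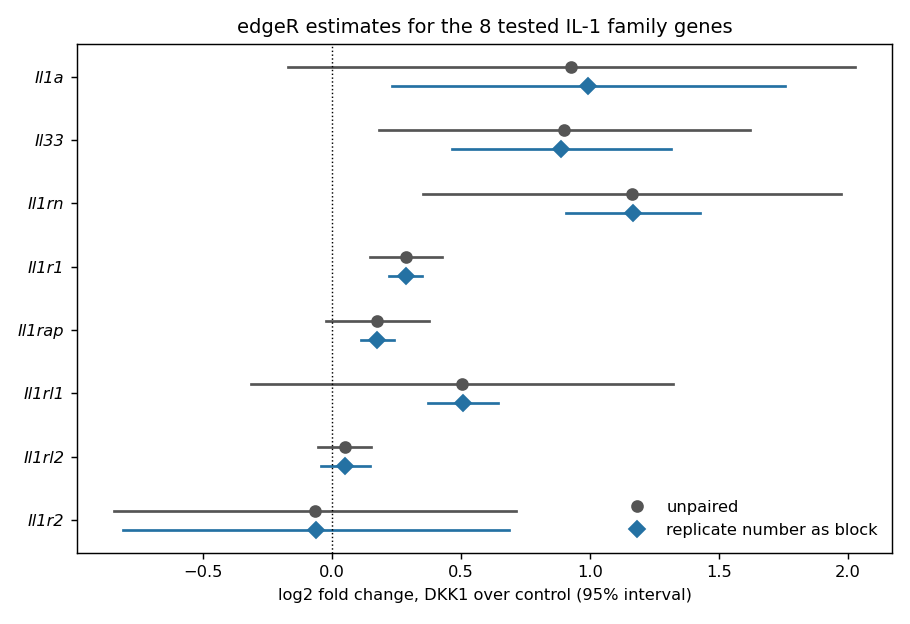
Log2 fold change of DKK1 over control for the 8 tested genes with its 95% interval, from edgeR without pairing (grey circles) and with same-numbered libraries as blocks (blue diamonds). The estimates are nearly the same in both fits, from -0.07 for Il1r2 to 1.16 for Il1rn without pairing, and the paired intervals of Il1rn, Il1r1, Il1rap, Il1rl1, Il33 and Il1a lie above 0, the last of which was not called after adjustment.

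The 8 tested genes had a median log2 fold change of 0.39, beside -0.00091 over all tested genes; 7 of the 8 had a value above 0, against 49.6% of all tested genes. In CPM, 6 of the 8 were higher in each of the 3 same-numbered pairs, against 22.3% of all tested genes. Il1b and Il18, which were not tested, are not in these counts. The members were chosen with earlier results of these data known, so the counts are not independent evidence. With both libraries of 1 number left out in turn, the paired fit called 5 members higher without replicate 1 and 5 without replicate 3, where 8.89% and 7.12% of all genes were called, 4.58% and 3.98% as higher. It called 4 without replicate 2, all but Il33, where 4.2% of all genes were called and 2.58% as higher.

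The 4 receptor genes Il1r2, Il1r1, Il1rl2 and Il1rl1 lie next to each other on chromosome 1, all on the plus strand, followed by the IL-18 receptor genes Il18r1 and Il18rap, in 477.6 kb from 40074079 to 40551705 (GRCm38). In the paired fit Il1r1 and Il1rl1 were called and their neighbours in this cluster were not. Of these neighbours, Il1r2, Il18r1 and Il18rap had at most 24, 58 and 81 counts in any library. Their paired 95% intervals were wide (-0.81 to 0.69, -0.58 to 0.38 and -0.12 to 0.68) and overlapped those of Il1r1 and Il1rl1. In chromosomal order the paired log2 fold changes were -0.06 for Il1r2, 0.29 for Il1r1, 0.05 for Il1rl2, 0.51 for Il1rl1, -0.10 for Il18r1 (SE 0.22, edgeR adjusted p = 0.863) and 0.28 for Il18rap (SE 0.18, adjusted p = 0.437). The paired 95% intervals of the neighbours Il1r1 (0.22 to 0.35) and Il1rl2 (-0.04 to 0.15) did not overlap, and neither did those of Il1rl2 and Il1rl1 (0.37 to 0.64); the differences themselves were not tested. Map4k4, a kinase gene before the cluster, had a paired log2 difference of 0.12 (SE 0.02; edgeR, adjusted p = 0.0011), and Slc9a4 after it one of 0.63 (SE 0.29; adjusted p = 0.232).

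The family's other genes were mostly near or under the limit of detection. Of 11 further ligand and receptor genes, 3 were tested (Il18r1, Il18rap and the IL-18 binding protein gene Il18bp). Neither fit called any, where 0.895% of all tested genes were called without pairing and 9.42% with it. In edgeR without pairing 0 had an unadjusted p under 0.05, against 10.6% of all tested genes, and DESeq2 called 0, against 2.04%. The IL-36 ligand genes Il36a and Il36b were at 0 in all libraries, a limit of fewer than 3 counts each. Il36g, the gene of IL-36 gamma and a ligand of IL1RL2, had 1, 1 and 1 counts in control replicates 1, 2 and 3, and 11, 5 and 10 counts in DKK1 replicates 1, 2 and 3. Its sums of 3 and 26 counts gave a ratio of rates of 7.37 (exact 95% interval 2.26 to 38.0, counting error only). Fitted without the count filter, Il36g was not called (edgeR adjusted p = 0.115, and 0.0587 with pairing). Il36g was singled out after its values were seen.

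Of the genes that relay the receptor signal, all 16 listed were tested, and 0 were called by edgeR without pairing and 0 by DESeq2. At an unadjusted p under 0.05 there were 2, where 10.6% of all tested genes were, and with pairing 2 rose, Irak3 and Chuk, where 4.96% of all tested genes did. The median log2 fold change of the 16 was 0.0005. Irak3, an inhibitor of the pathway, went from 7.32 ± 0.523 to 9.21 ± 0.236 CPM (SD, n = 3 each), or 0.32 higher on the log2 scale in the paired fit (SE 0.09; edgeR, adjusted p = 0.0382). Chuk, an NF-kB kinase subunit gene, went from 134 ± 5.01 to 147 ± 8.48 CPM, or 0.13 higher in the same fit (SE 0.03; adjusted p = 0.00598). Of 14 genes for cytokine processing and release 13 were tested and 0 were called by edgeR without pairing, where 2 had an unadjusted p under 0.05, against 10.6% of all tested genes. DESeq2 called 2, Casp4 higher and Capn2 lower, against 2.04% of all genes, and the paired fit called 3, against 9.42%. With pairing, the inflammatory caspase gene Casp4 rose by 0.79 (SE 0.14, adjusted p = 0.00279), and the calpain gene Capn2, whose protein family cleaves the IL-1 alpha precursor, fell by 0.13 (SE 0.02, adjusted p = 0.000567) on the log2 scale. The cathepsin gene Ctss, also a macrophage gene, fell by 0.38 (SE 0.05, adjusted p = 0.000105).

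Of 25 listed genes known to respond to IL-1 in fibroblasts, 23 were tested. Without pairing 13 rose, where 0.697% of all tested genes did, and with pairing 19 rose, where 4.96% did; 0 fell in either fit, and the median log2 fold change was 0.64. These genes also answer to other signals, and the list was written with earlier results on several of its members known, so the count is not independent evidence. By smallest p the leading genes were Il6, Cxcl5, Ccl7, Sod2, Mmp3 and Cxcl1. Mmp3, the stromelysin gene, averaged 17.5 ± 2.30 CPM in control and 39.6 ± 6.81 CPM in DKK1 libraries (SD, n = 3 each), 1.18 higher on the log2 scale (SE 0.13; edgeR, adjusted p = 0.00742). Sod2, the mitochondrial superoxide dismutase gene, averaged 40.5 ± 0.776 and 54.6 ± 2.53 CPM, 0.43 higher (SE 0.05; adjusted p = 0.00689). The number called without pairing fell to 8 without control replicate 1, 5 without control replicate 2, 7 without DKK1 replicate 1 and 8 without DKK1 replicate 2.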

How the data were processed

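The deposited table gave RSEM expected counts per gene for 6 mouse lung fibroblast libraries; the authors' processing notes name STAR, RSEM, edgeR 4.2.1 and the build GRCm38 (mm10), and the annotation release and strandedness are not given in the sources used here. Library totals ran from 22565917 to 34727102 counts, so that 3 counts, the floor used here, equal 0.0864 to 0.133 CPM. The 9 fibroblast markers (Col1a1, Col1a2, Pdgfra, Pdgfrb, Dcn, Lum, Thy1, Vim and Fn1) summed to 15720 to 18803 CPM over the libraries; in the paired fit Pdgfra and Dcn rose, 6 fell and Lum was not called, where 9.42% of all tested genes were called and 4.96% rose. Other sums were at most 5.78 CPM for lymphocyte and 31.6 CPM for mesothelial markers. Mitochondrial transcripts took 1.49% to 1.55% of control and 1.63% to 1.70% of DKK1 counts; their part in the results was not tested. The first principal component held 32.2% of the variance.

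Symbols came from GENCODE M21 (GRCm38; 98.8% of identifiers matched), as did positions and merged exon lengths; the IL-36 genes were matched through RefSeq synonyms. Rounded expected counts were fitted with edgeR 4.0.16 in R 4.3.3 (filterByExpr with a minimum count of 10, TMM, quasi-likelihood test, two-sided, Benjamini-Hochberg adjustment over 14635 genes, threshold 0.05). SE is the absolute log2 fold change over the square root of F. Replicate numbers come from the titles, which do not say what a number marks. They were taken to pair the samples because deviations of same-numbered libraries from their group means correlated across genes in all 3 pairs (r = 0.257, 0.207 and 0.380; crossed pairs at most 0.075). Deviations from a group mean cancel within the group, so positive same-numbered values push the crossed ones down. The low crossed values are therefore not separate evidence of pairing. The members, gene lists and tests were chosen with earlier results of these data known; named were all members, up to 6 genes a list called in either fit by smallest unpaired p, defining markers, and the 3 genes most like the member of highest CPM, a result that is not reported here. Exons of Il1a, Il1b and Il1rap overlap antisense genes that held at most 6 counts. For Il1a, with 4 to 33 counts itself, the overlapping gene held 1 to 6, and sharing of reads between them was not tested. The scripts were tested on simulated data.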

Additional observations from a re-analysis of the deposited data

How the results depend on the processing

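Without pairing, 131 genes were called with all samples, and 0 members. Dropping the low-count filter gave 329 genes and 2 members (Il1rn and Il1r1), DESeq2 1.42.0 gave 289 and 2 (the same genes), the replicate block 1379 and 5, and the block without the filter 1806 and 7 (Il1a and Il1b added). Leaving out both replicate 3 libraries, chosen after seeing the data, gave 1 member (Il1rn). With the block and both libraries of 1 number left out, also chosen after seeing the data, 5, 4 and 5 members were called without replicates 1, 2 and 3. Leaving out single libraries gave 36 to 139 genes, 0 members in all 6 fits and 5 to 12 IL-1 response genes. The receptor signalling relay list had 2 calls with the block. The processing and release list had 1 call without the filter, 3 with the block and 2 with DESeq2. The cause of these differences between fits was not tested.

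No member was called with limma-voom (limma 3.58.1), with unrounded counts, with scaling by library totals or by the size factors of DESeq2, or when each sample had to reach 10 counts. The sign changed for Il1r2 alone among the tested members, to 0.27 with the block and without replicate 2, and its log2 fold change ranged from -0.28 to 0.31 over the fits without 1 library; the cause was not tested. Over the same fits Il1rn ranged from 0.77 to 1.56, Il1r1 from 0.23 to 0.34, Il1rap from 0.09 to 0.26, Il1rl1 from 0.08 to 0.97, Il33 from 0.64 to 1.16 and Il1a from 0.52 to 1.56. Il1b passed the filter in 2 of them, at 1.64 without control replicate 1 and 6.42 without control replicate 3, the control library that held all 6 of its control counts; the latter is a fitted value against controls at 0 and no bound. The length of the longest transcript in place of merged exons moved 8 of 20 mean levels by more than their SD, Il1rap in control to 48.3 TPM, with the first 6 places in the same order.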
